A study of Mus musculus with 2 samples.

Results

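The genes described here were 7 genes for receptors of myeloid growth factors, *Flt3*, *Kit*, *Csf1r*, *Csf2ra*, *Csf2rb*, *Csf2rb2* and *Csf3r*, together with the ligand gene *Csf1*, 8 of the 27032 genes in the count tables. They were chosen by name and read in cells that had been classed by other genes. The data were single-cell transcriptomes of spleen cells from Wild-Type mice, enriched for CD11c on magnetic beads, and captured on the BD Rhapsody system. On this system each transcript receives its own molecular identifier (UMI) before amplification, and copies of 1 transcript are counted once. There were 2 samples of 1 condition, called replicates 1 and 2. The methods of the study place all of its mice on the C57BL/6J background and describe them as adults, both males and females. Exact ages, any treatment of these mice and the number of mice per sample were not found in the sources used here, so that p-values measure only the spread between these samples, which may be technical.

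FLT3, KIT and CSF1R are related receptor tyrosine kinases. FLT3 carries the signal of FLT3 ligand, on which dendritic cells (DCs) depend, KIT that of stem cell factor, and CSF1R that of CSF1 and IL-34, which keep most tissue macrophages alive. The receptor of GM-CSF joins a specific alpha chain, encoded by *Csf2ra*, to a beta chain encoded by *Csf2rb* that also serves the receptors of IL-3 and IL-5. The mouse has a further beta chain, encoded by *Csf2rb2*, that serves IL-3 only. *Csf3r* encodes the receptor of G-CSF, known above all from neutrophils. Conventional DCs of the spleen (cDCs) fall into the cross-presenting cDC1s and the cDC2s, and plasmacytoid DCs (pDCs) are known for making type I interferon.

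After filtering, 5653 of 6393 cells remained, and 4435 of them fell into 1 of 9 classes by UMI minimums, taken in a fixed order. Macrophages (at least 20 *Vcam1* and 5 *C1qb* UMIs) numbered 293 in replicate 1 and 130 in replicate 2. Mature DCs (*Ccr7* and *Fscn1*) numbered 138 and 173. The cDC1s (*Clec9a* and *Xcr1*) were 684 and 570 cells, and the pDCs (*Siglech* and *Ccr9*) 13 and 19. The DCIR2 cDC2s (*Clec4a4*) numbered 556 and 456, and the CLEC10A cDC2s (*Clec10a* and *Cd209a* together) 484 and 408. B, T and NK cells were 65, 41 and 38 cells in replicate 1 and 172, 159 and 36 in replicate 2. No cell barcode was shared between the tables (0), and the depth was 46953398 and 43137746 UMIs.

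The labels of the classes were checked against marker genes that the gates did not use. All 10 macrophage markers, 7 of 8 mature DC markers, 6 of 8 cDC1 markers, 6 of 8 pDC markers and all 6 markers each of B, T and NK cells were highest in their own class. For the cDC2 classes this held for only 1 of 6 and 2 of 6 markers. Between these 2 classes alone, *Esam*, *Dtx1*, *Cd4* and *Tbx21* were higher in both replicates of the DCIR2 cDC2s, *Hes1* was higher in the CLEC10A cDC2s, and *Mgl2*, *Lyz2*, *Lyz1*, *Ms4a6c* and *Cd300a* were higher in the CLEC10A cDC2s. The gates overlap, and 365 of 1012 DCIR2 cDC2s and 18 of 32 pDCs also passed the gate of the CLEC10A cDC2s. The names of these classes therefore stand for their gates. The NK class, gated on 1 *Ncr1* UMI, held the 6 markers of CLEC10A cDC2s at a summed 1609 and 839 CPM. B cells held them at 132 and 68.6 CPM. Of the 74 NK cells, 3 also passed the gate of DCIR2 cDC2s and 5 that of CLEC10A cDC2s. The part of such cells in the receptor levels of the NK class was not tested. No cells were removed as doublets, but each comparison was repeated without the 610 kept cells that passed more than 1 gate.

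Positions are given on GRCm38. *Flt3* lies on chromosome 5 from 147330741 to 147400489 on the minus strand, and *Kit* on the same chromosome from 75574916 to 75656722 on the plus strand. *Csf2ra* lies on chromosome 19 from 61223957 to 61228429, *Csf3r* on chromosome 4 from 126024550 to 126044440 and *Csf1* on chromosome 3 from 107741048 to 107760469. *Csf1r* lies on chromosome 18. Its annotated span overlaps *Hmgxb3* on the opposite strand, which held 1460 UMIs in all kept cells. The span of *Flt3* overlaps *Gm26597* on the opposite strand, with 54 UMIs. The sources used here do not say whether the counting used the strand.

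The beta chain genes lie next to each other on chromosome 15, *Csf2rb2* from 78282507 to 78305721 on the minus strand and *Csf2rb* from 78325752 to 78353847 on the plus strand, 20030 bases apart. Their longest coding transcripts share 518 stretches of 75 bases, which is 10.7% of the stretches of *Csf2rb* and 11.1% of those of *Csf2rb2*. None of the shared stretches (0) lies in the last 1000 bases of either transcript. The sources used here do not say how reads from the shared stretches were counted, so the split between both genes is uncertain to that extent.

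Promoter sequences were at hand for 6 of the 8 genes, in RefSeq's annotation of GRCm38.p6. Those of *Flt3* and *Kit*, which were far lower in macrophages than in DCs, and of *Csf2rb2*, whose share of the beta chain UMIs varied between DC classes, are shown from 5′ to 3′ on the strand of the gene. Each holds bases before the start of the gene only. Capitals mark the letters GAGGAA on either strand, the core of sites bound by PU.1, a transcription factor of myeloid cells.
Flt3, chr5:147400490-147400739, minus strand: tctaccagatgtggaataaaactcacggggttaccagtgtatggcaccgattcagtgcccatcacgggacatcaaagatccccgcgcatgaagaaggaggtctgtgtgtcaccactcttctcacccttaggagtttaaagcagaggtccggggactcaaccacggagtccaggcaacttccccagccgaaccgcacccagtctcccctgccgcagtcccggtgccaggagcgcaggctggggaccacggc
Kit, chr5:75574737-75574915, plus strand: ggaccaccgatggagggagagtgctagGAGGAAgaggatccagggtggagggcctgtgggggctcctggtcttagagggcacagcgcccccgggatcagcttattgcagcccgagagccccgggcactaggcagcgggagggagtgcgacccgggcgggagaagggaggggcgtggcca
Csf2rb2, chr15:78305722-78305971, minus strand: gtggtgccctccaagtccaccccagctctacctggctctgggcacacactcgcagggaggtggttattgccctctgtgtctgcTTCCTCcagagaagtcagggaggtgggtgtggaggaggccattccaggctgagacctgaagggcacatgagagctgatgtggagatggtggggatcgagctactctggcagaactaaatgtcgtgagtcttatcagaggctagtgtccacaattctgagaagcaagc
Over the 250 bases before each start in RefSeq, *Kit*, *Csf2ra*, *Csf2rb2* and *Csf3r* held these letters on either strand, and *Flt3* and *Csf1* did not. The positions given above put the start of *Csf3r* 109 bases and that of *Csf2ra* 11 bases further upstream. By them the matches of *Csf3r* (86 bases before the RefSeq start) and *Csf2ra* (14 and 8 bases before it) lay within the gene or reached into it. Of all 32851 promoters of the same length in the table, 23.3% held them. The composite element bound by PU.1 with a factor of the IRF family was in none of the 6 promoters (0) and in 2.30% of all. The RUNX core TGTGGT was in none of the 6 (0) and in 14.05% of all. Matches of the PU.1 core and of the composite element can overlap, and a match is only a description of the sequence.

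Levels are UMIs of a gene per 1000000 UMIs of a class (CPM), given for replicate 1 and then replicate 2. *Flt3* was highest in pDCs, at 959 and 1156 CPM, followed by mature DCs at 604 and 624 CPM and cDC1s at 592 and 586 CPM. CLEC10A cDC2s held 456 and 497 CPM and DCIR2 cDC2s 434 and 440 CPM. Each of these 5 DC classes lay apart from the next in both replicates, and all of them lay above every other class. The remaining classes were NK cells at 74.2 and 261 CPM, T cells at 54.7 and 53.8 CPM, B cells at 42.4 and 36.1 CPM and macrophages at 19.5 and 11.8 CPM. Macrophages were the class with the least *Flt3*.

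*Kit* also marked DCs, but with another order of the classes. DCIR2 cDC2s led with 269 and 271 CPM, ahead of pDCs with 208 and 235 CPM. CLEC10A cDC2s at 190 and 171 CPM, mature DCs at 158 and 182 CPM, cDC1s at 152 and 160 CPM and NK cells at 101 and 200 CPM followed, each overlapping its neighbour in this order. T cells held 45.1 and 30.1 CPM, B cells 22.0 and 25.8 CPM and macrophages 7.05 and 8.56 CPM.

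**Figure D1:**
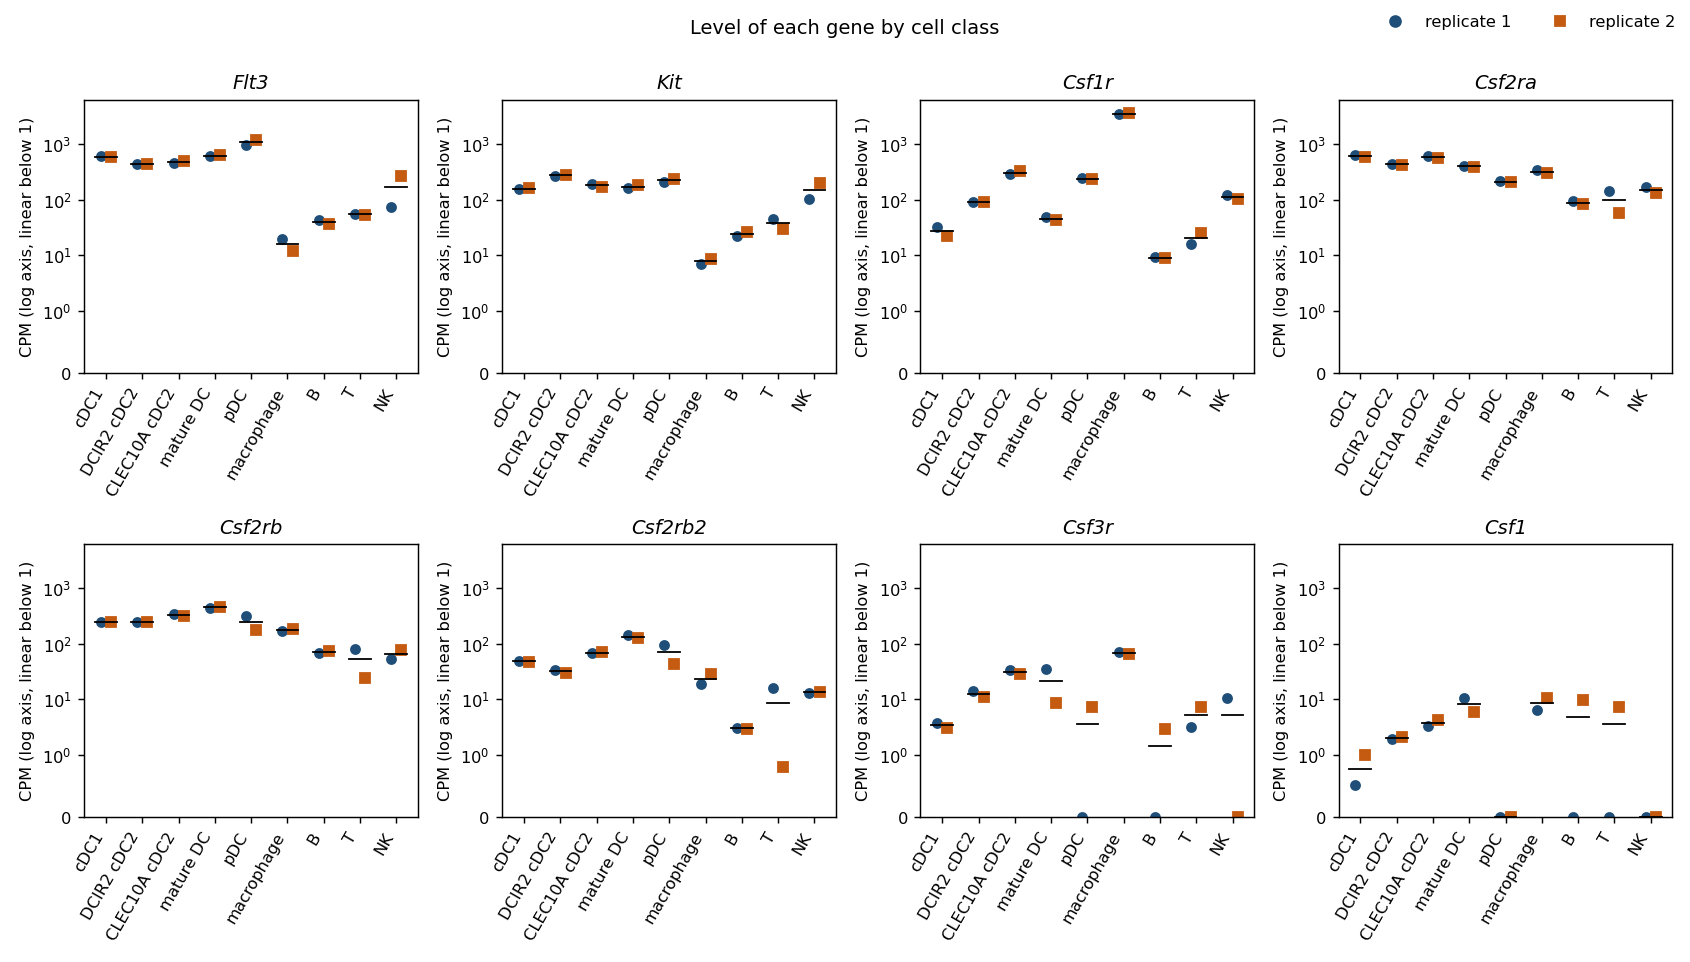
Level of each of the 8 genes (vertical axis, CPM, logarithmic above 1 and linear below) in the 9 cell classes (horizontal axis), with a circle for replicate 1, a square for replicate 2 and a line at their mean. *Flt3* and *Kit* are lowest in macrophages, where *Csf1r* stands at 3411 and 3507 CPM, more than in any other class.

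*Csf1r* was highest in macrophages, the class with the least *Flt3* and *Kit*. Macrophages held 3411 and 3507 CPM, and every macrophage had at least 1 UMI, with a median of 57 and 59.5 UMIs per cell. CLEC10A cDC2s came next at 284 and 322 CPM, then pDCs at 240 and 231 CPM and NK cells at 122 and 102 CPM. Without the cell with the most *Csf1r* UMIs in each replicate, NK cells held 81.3 and 79.4 CPM. DCIR2 cDC2s held 88.9 and 90.8 CPM, mature DCs 47.9 and 43.5 CPM and cDC1s 31.6 and 22.5 CPM. In the cDC1s of replicate 1, 1 cell held 132 of the 420 *Csf1r* UMIs, and the level without it was 21.8 CPM. T cells and B cells held between 8.85 and 25.2 CPM. The macrophage class held 82.5% of all *Csf1r* UMIs of replicate 1 and 67.9% of those of replicate 2.

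The GM-CSF receptor genes were spread more evenly. *Csf2ra*, the alpha chain, stood at 625 and 579 CPM in cDC1s and 607 and 547 CPM in CLEC10A cDC2s, which overlapped. It fell from there over DCIR2 cDC2s (441 and 409 CPM), mature DCs (406 and 384 CPM), macrophages (333 and 296 CPM) and pDCs (213 and 206 CPM) to values between 56.2 and 170 CPM in the lymphocyte classes. *Csf2rb* was highest in mature DCs, at 435 and 452 CPM, and next in CLEC10A cDC2s at 345 and 312 CPM. The cDC1s, both at 248 CPM, the DCIR2 cDC2s at 246 and 248 CPM and the pDCs at 309 and 177 CPM overlapped. Macrophages held 170 and 186 CPM. *Csf2rb2* was highest in mature DCs too, at 142 and 125 CPM. CLEC10A cDC2s held 67.2 and 71.2 CPM, cDC1s 49.0 and 47.3 CPM, DCIR2 cDC2s 33.9 and 30.3 CPM and macrophages 19.0 and 28.1 CPM. The pDCs held 18 and 12 *Csf2rb2* UMIs in all, or 95.9 and 43.3 CPM.

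*Csf3r* was low throughout and highest in macrophages, at 70.7 and 66.1 CPM. CLEC10A cDC2s held 33.1 and 28.6 CPM, DCIR2 cDC2s 13.96 and 10.8 CPM and cDC1s 3.84 and 3.05 CPM. In mature DCs the replicates lay far apart, at 34.7 and 8.50 CPM. In replicate 1, 1 cell held 42 of the 55 *Csf3r* UMIs of the class, and without it the level was 8.22 CPM. That cell held 2 *S100a8* and 4 *S100a9* UMIs, genes known from neutrophils. All 6 cells of the whole data with at least 10 *Csf3r* UMIs held at least 2 UMIs of these neutrophil genes. B, T, NK cells and pDCs held between 0 and 9 *Csf3r* UMIs per replicate, and counts of 0 in pDCs and B cells of replicate 1 and NK cells of replicate 2 allow levels of up to 16.0, 4.71 and 10.2 CPM, the worth of 3 UMIs.

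*Csf1*, the ligand of CSF1R, was low in all classes. Macrophages held 36 and 26 UMIs (6.51 and 10.6 CPM) and mature DCs 17 and 12 UMIs (10.7 and 5.998 CPM), and both classes overlapped. CLEC10A cDC2s held 3.30 and 4.27 CPM, DCIR2 cDC2s 1.94 and 2.17 CPM and cDC1s 0.527 and 1.02 CPM. No *Csf1* UMI (0) was found in NK cells and pDCs. B and T cells had 13 and 9 UMIs in replicate 2 and none (0) in replicate 1. In NK cells, pDCs and T cells of replicate 1, a count of 0 allows levels (3 UMIs) above the 6.51 CPM of macrophages in replicate 1. These classes can therefore not be placed below macrophages.

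The classes differed in depth, from a median of 6145 UMIs per cell in T cells of replicate 1 to 20952.5 in cDC1s of replicate 2. The shares of cells with a UMI of *Flt3*, *Kit*, *Csf1r* and *Csf3r* are therefore given after each cell was thinned to 3000 UMIs, with some unthinned shares beside them and 95% Clopper-Pearson intervals that cover counting error only. *Flt3* was found in 78.4% (75.1 to 81.4) and 78.2% (74.6 to 81.6) of thinned cDC1s, against 97.4% and 98.2% without thinning. In DCIR2 cDC2s it was found in 63.8% and 64.0% of thinned cells, and in CLEC10A cDC2s in 66.7% and 70.3%. B cells, with a median of 7677 and 6981.5 UMIs, should lack the receptor, and 9.38% (3.52 to 19.3) and 7.60% (4.11 to 12.6) of them had a *Flt3* UMI after thinning. In macrophages, with a median of 19313 and 18136.5 UMIs, the share was 3.41% (1.65 to 6.19) and 1.54% (0.187 to 5.45), with 11.9% and 11.5% unthinned. The shares of macrophages lay below those of B cells, with overlapping intervals. Of 423 macrophages, 16 also passed the gate of cDC1s, and the source of the *Flt3* UMIs in macrophages was not tested.

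*Kit* was found in 53.6% (49.3 to 57.8) and 52.5% (47.8 to 57.2) of thinned DCIR2 cDC2s, above 36.4% and 34.8% of CLEC10A cDC2s and 35.5% and 35.4% of cDC1s. Without thinning, cDC1s reached 82.2% and 83.0%, close to 86.7% and 86.8% of DCIR2 cDC2s, and CLEC10A cDC2s stood at 69.2% and 65.2%. B cells gave 6.25% and 7.60% after thinning, and macrophages 2.39% and 0.769%. *Csf1r* was found in every thinned macrophage, in 41.2% (36.8 to 45.7) and 43.4% (38.5 to 48.4) of CLEC10A cDC2s, in 18.2% and 17.1% of DCIR2 cDC2s, and in 5.41% and 4.04% of cDC1s. B cells gave 3.12% (0.381 to 10.8) and 1.75% (0.363 to 5.04), so that the intervals of cDC1s and B cells overlapped. *Csf3r* was found in 19.5% and 16.2% of thinned macrophages, 8.49% and 7.35% of CLEC10A cDC2s, 3.24% and 2.86% of DCIR2 cDC2s and 1.02% and 0.702% of cDC1s.

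**Figure D2:**
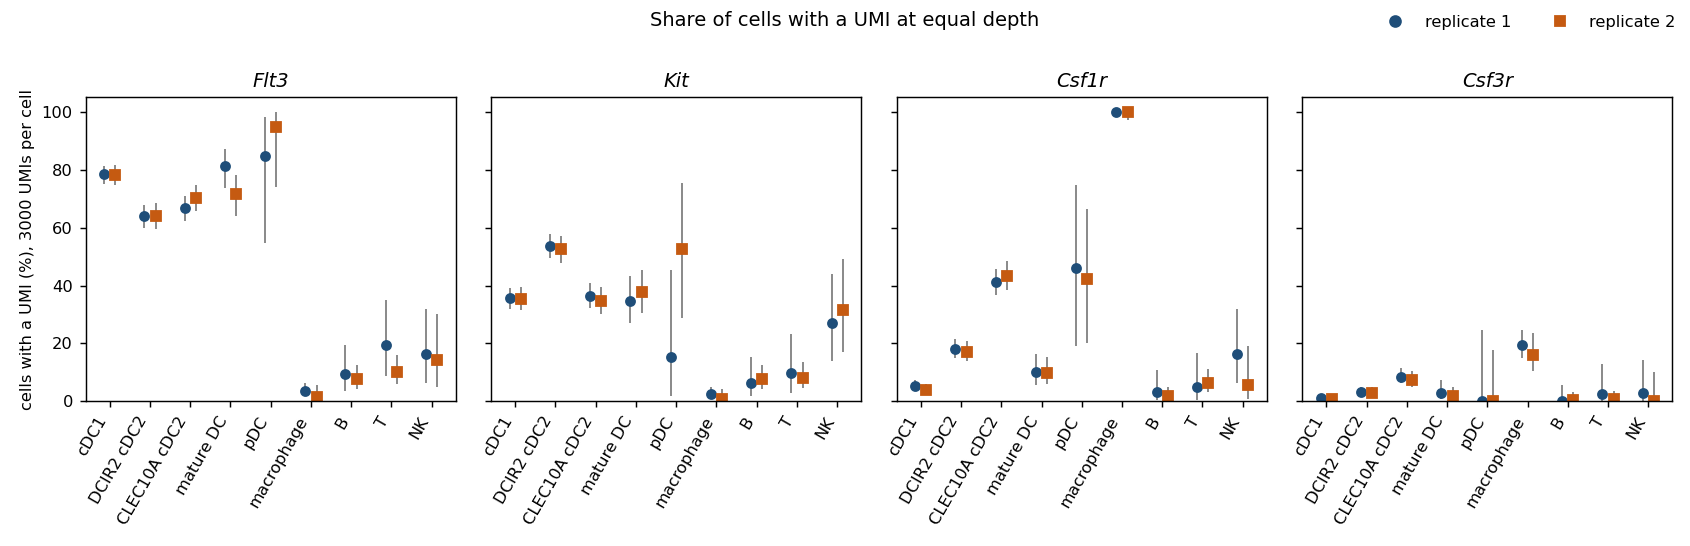
Share of cells with at least 1 UMI (vertical axis, percent) after each cell was thinned to 3000 UMIs, in the 9 classes (horizontal axis), for *Flt3*, *Kit*, *Csf1r* and *Csf3r*. Circles are replicate 1, squares replicate 2 and bars the 95% Clopper-Pearson interval, and *Csf1r* stands at 100% in macrophages and 41.2% and 43.4% in CLEC10A cDC2s.

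The first comparison asked how macrophages differed from resident cDCs, taken as the mean of cDC1s, DCIR2 cDC2s and CLEC10A cDC2s. UMI sums per replicate and class were tested with edgeR's quasi-likelihood test, with Benjamini-Hochberg adjustment over all 11903 genes tested. In the comparisons between classes, all cell classes, B, T and NK cells included, shared a common estimate of the spread. Sums of different classes from the same sample were treated as independent. The p-values therefore do not rest on the spread of the compared classes alone. Of the 8 genes, 3 were higher in macrophages and 5 lower, where 27.5% of all genes were called higher and 26.6% lower. *Flt3* was lower by a log2 fold change of -4.83 (SE 0.27, edgeR adjusted p = 4.43e-12) and *Kit* by -4.62 (SE 0.21, edgeR adjusted p = 1.78e-13). *Csf1r* was higher by 5.33 on the log2 scale (SE 0.10, edgeR adjusted p = 9.24e-19) and *Csf3r* by 2.71 (SE 0.25, edgeR adjusted p = 1.06e-08). *Csf1* was higher by 2.24 (SE 0.49, edgeR adjusted p = 0.00076).

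The GM-CSF receptor genes differed less between macrophages and resident cDCs. *Csf2ra* was lower by a log2 fold change of -0.67 (SE 0.15), *Csf2rb* by -0.55 (SE 0.17) and *Csf2rb2* by -0.996 (SE 0.21), with edgeR adjusted p of 0.000857, 0.00863 and 0.00051. DESeq2 gave an adjusted p of 0.0987 for *Csf2rb*, above the threshold of 0.05. Without the macrophages of replicate 1, the adjusted p were 0.14 for *Csf2rb* and 0.0898 for *Csf2rb2*. Summed erythroid markers stood at 2375 and 637 CPM in macrophages and at most 47.3 CPM in the resident cDC classes, and their part in these differences was not tested.

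**Figure D3:**
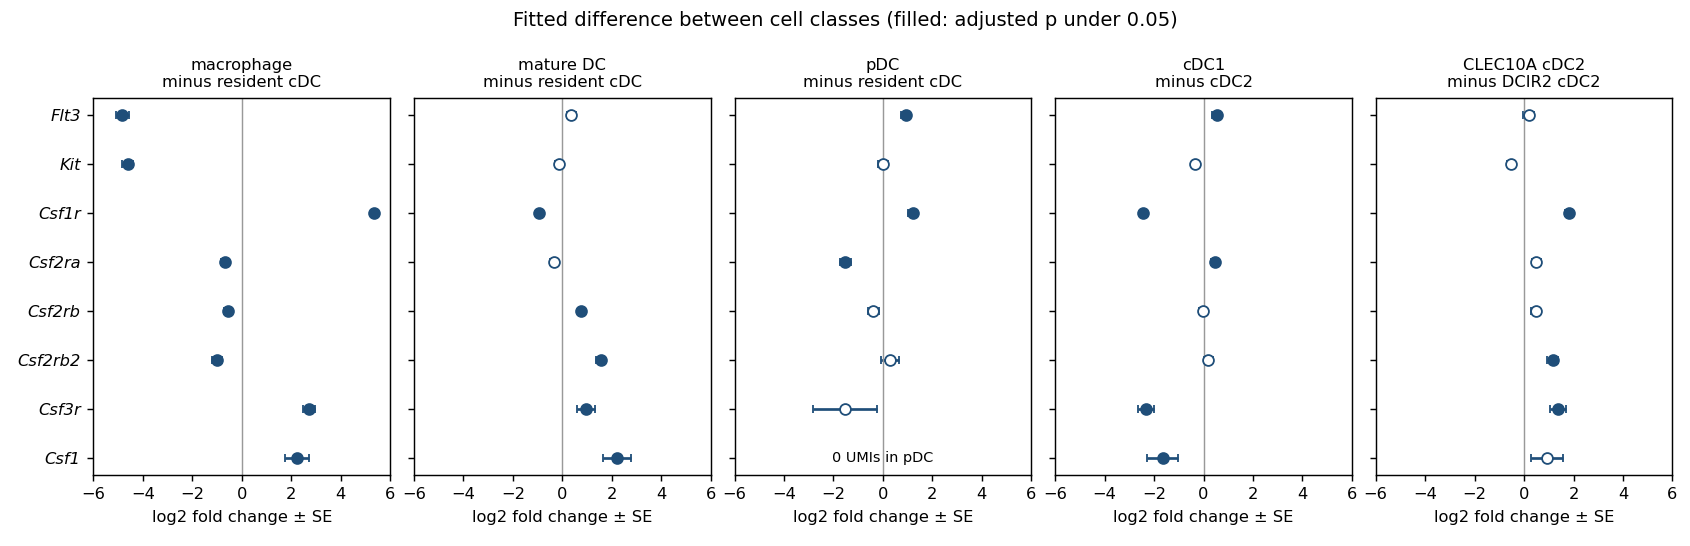
Log2 fold change of each gene (horizontal axis) with its standard error in 5 comparisons between cell classes, with filled circles where edgeR's adjusted p was under 0.05. *Csf1r* lies at 5.33 in macrophages against resident cDCs and at -2.44 in cDC1s against cDC2s, and the filled *Csf3r* point of mature DCs rests on 1 cell of replicate 1.

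The comparison of cDC1s with cDC2s, the mean of both cDC2 classes, gave 2 genes higher and 3 lower, where 18.5% of all genes were called higher and 17.5% lower. *Csf1r* was lower in cDC1s by a log2 fold change of -2.44 (SE 0.14, edgeR adjusted p = 2.26e-11) and *Csf3r* by -2.33 (SE 0.34, edgeR adjusted p = 1.42e-05). *Csf1* was lower by -1.66 (SE 0.61, edgeR adjusted p = 0.0428), on 19 UMIs in all cDC1s. *Flt3* was higher in cDC1s by 0.53 (SE 0.18) and *Csf2ra* by 0.45 (SE 0.15), with edgeR adjusted p of 0.0273 and 0.0244. DESeq2 did not call either, with adjusted p of 0.173 and 0.122. Summed macrophage markers, none of the 10 at 0, stood at 139 and 117 CPM in cDC1s, 221 and 225 CPM in DCIR2 cDC2s and 297 and 385 CPM in CLEC10A cDC2s, and their part in the *Csf1r* differences between these classes was not tested. With cDC1s of only 1 replicate, neither these 2 genes nor *Csf1* passed the threshold (edgeR adjusted p between 0.0919 and 0.316), under the assumption that the lone sample varies like the other groups.

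*Kit* stood at -0.33 (SE 0.14, edgeR adjusted p = 0.0618) between cDC1s and cDC2s. Classes of 1 replicate come from the same sample, and with the sample as a block edgeR's adjusted p was 0.0123, and DESeq2 without the block gave 0.0378. *Csf2rb* at -0.04 (SE 0.16) and *Csf2rb2* at 0.20 (SE 0.18) did not pass the threshold. The nearly equal *Csf2rb* of cDC1s hid unequal cDC2 classes, with 248 CPM in cDC1s of both replicates between 246 to 248 CPM of DCIR2 cDC2s and 312 to 345 CPM of CLEC10A cDC2s.

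Between the cDC2 classes, 3 genes were higher in CLEC10A cDC2s and none (0) lower, where 3.55% of all genes were called higher and 1.99% lower. *Csf1r* was higher by 1.81 on the log2 scale (SE 0.14, edgeR adjusted p = 1.89e-07), *Csf2rb2* by 1.16 (SE 0.22, edgeR adjusted p = 0.00249) and *Csf3r* by 1.37 (SE 0.34, edgeR adjusted p = 0.0196). *Csf3r* was not called by DESeq2 (adjusted p = 0.101) nor with CLEC10A cDC2s of only 1 replicate (edgeR adjusted p of 0.0765 and 0.136). *Kit* stood at -0.52 (SE 0.16, edgeR adjusted p = 0.0568). With the sample as a block its edgeR adjusted p was 0.0084, and DESeq2 gave 0.0413. *Csf2ra* at 0.50 (SE 0.18), *Csf2rb* at 0.47 (SE 0.19), *Flt3* at 0.18 (SE 0.22) and *Csf1* at 0.93 (SE 0.66) did not pass the threshold. Without cells of more than 1 gate, *Csf2ra* (0.72, edgeR adjusted p = 0.0405) and *Csf2rb* (0.75, edgeR adjusted p = 0.028) did.

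The summed level of monocyte markers also differed between the cDC2 classes. It was 1402 and 1437 CPM in CLEC10A cDC2s and 867 and 904 CPM in DCIR2 cDC2s, with 1 of the 9 markers at 0 in the DCIR2 cDC2s of replicate 1. In macrophages it was 425 and 403 CPM and in pDCs 2255 and 2449 CPM. Of the 9 markers, *Ms4a4c* was highest in DCIR2 cDC2s, at a mean of 239 CPM. A UMI of *Ly6c2*, *Vcan*, *F13a1* or *Fn1* was found in 41 and 39 CLEC10A cDC2s and in 10 and 10 DCIR2 cDC2s. Without these cells, in a comparison chosen after seeing the data, *Csf1r* was higher in CLEC10A cDC2s by 1.80, *Csf2rb2* by 1.11 and *Csf3r* by 1.37, and all 3 passed the threshold in edgeR. The other monocyte markers, among them *Ace* and *Treml4*, were not used to leave out cells. The part of monocytes in these differences was therefore not tested.

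Mature DCs were compared with the same resident cDCs that served in the comparison with macrophages. Of the 8 genes, 4 were higher in mature DCs and 1 lower, where 18.2% of all genes were called higher and 15% lower. *Csf2rb2* was higher by 1.55 on the log2 scale (SE 0.17, edgeR adjusted p = 6.96e-07) and *Csf2rb* by 0.77 (SE 0.15, edgeR adjusted p = 0.000619). *Csf1* was higher by 2.22 (SE 0.57, edgeR adjusted p = 0.00546), on 29 UMIs in all mature DCs, and its adjusted p was 0.133 without the mature DCs of replicate 1. *Csf1r* was lower by -0.92 (SE 0.15, edgeR adjusted p = 4.76e-05) than the mean of the resident cDCs. Mature DCs, at 47.9 and 43.5 CPM, nevertheless lay above the cDC1s at 31.6 and 22.5 CPM. *Flt3* at 0.37 (SE 0.18), *Kit* at -0.15 (SE 0.14) and *Csf2ra* at -0.36 (SE 0.15) did not pass the threshold.

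*Csf3r* was called higher in mature DCs, by 0.96 on the log2 scale (SE 0.36, edgeR adjusted p = 0.0462; DESeq2 0.0566), but the call rested on the 1 cell with 42 UMIs. Without cells that held at least 2 UMIs of *S100a8* and *S100a9*, an alternative chosen after seeing the data, it was -0.08 (SE 0.35, edgeR adjusted p = 0.899). Without the mature DCs of replicate 1 it was -0.33. The other calls of this comparison held without the cells with neutrophil genes.

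The pDCs, with 32 cells in all, were compared with the resident cDCs as well. *Flt3* and *Csf1r* were higher and *Csf2ra* was lower, where 4.91% of all genes were called higher and 4.76% lower and the median log2 fold change of all genes was -0.16. *Flt3* was higher by 0.92 (SE 0.19, edgeR adjusted p = 0.00368) and *Csf1r* by 1.20 (SE 0.17, edgeR adjusted p = 6.19e-05). The *Csf1r* level of pDCs, at 240 and 231 CPM, nevertheless lay below that of CLEC10A cDC2s at 284 and 322 CPM. *Csf2ra* was lower by -1.52 (SE 0.22, edgeR adjusted p = 7.86e-05). *Flt3* did not pass the threshold without the pDCs of replicate 2 (0.65, edgeR adjusted p = 0.219). *Csf1r* stood at 0.56 (edgeR adjusted p = 0.449) without the cells of more than 1 gate, of which the pDC class held 9 of 13 and 12 of 19. *Kit* at 0.00 (SE 0.19), *Csf2rb* at -0.39 (SE 0.23), *Csf2rb2* at 0.28 (SE 0.37) and *Csf3r* at -1.53 (SE 1.29) were not called, and *Csf1* had no UMI (0) in pDCs.

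The split of the beta chain UMIs between both genes varied with the class. *Csf2rb2* made up 24.6% (21.8 to 27.5) and 21.7% (19.4 to 24.2) of the UMIs of both genes in mature DCs, with exact binomial intervals. It made up 16.3% and 18.6% in CLEC10A cDC2s, 16.5% and 16.0% in cDC1s, 12.1% and 10.9% in DCIR2 cDC2s, 10.05% and 13.2% in macrophages and, on few UMIs, 23.7% and 19.7% in pDCs. Over all kept cells the share was 15.6% and 15.5%. In B cells, with 46 and 103 UMIs of both genes, it was 4.35% (0.531 to 14.8) and 3.88% (1.07 to 9.65). The shares of mature DCs and DCIR2 cDC2s lay apart in both replicates, and the share was not tested across classes.

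**Figure D4:**
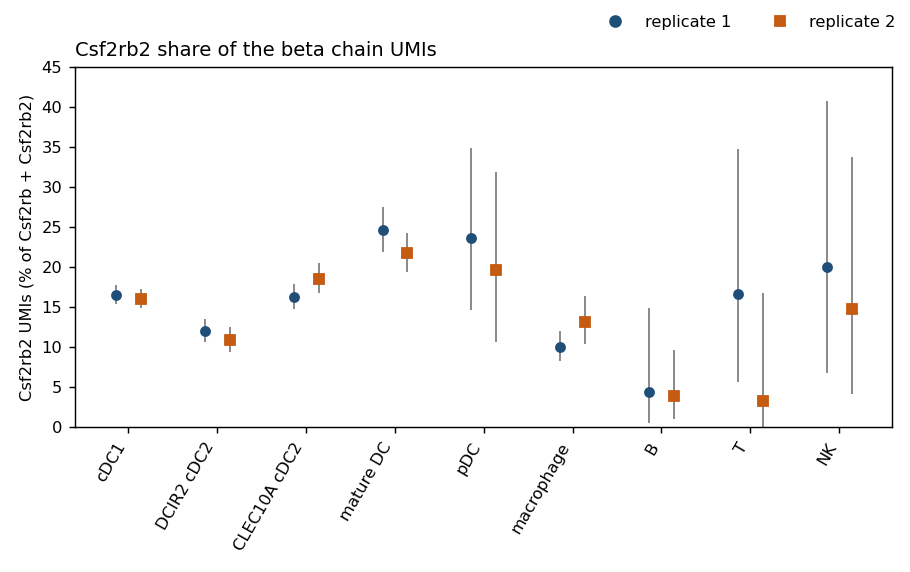
*Csf2rb2* UMIs as a share of the UMIs of *Csf2rb* and *Csf2rb2* together (vertical axis, percent) in the 9 classes (horizontal axis), with circles for replicate 1, squares for replicate 2 and bars for the exact 95% binomial interval. Mature DCs stand at 24.6% and 21.7%, above the cDC1s and both cDC2 classes in each replicate.

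Single cells often held UMIs of several receptors. *Flt3* and *Csf1r* were found together in 57.6% and 58.8% of CLEC10A cDC2s, 40.1% and 38.6% of DCIR2 cDC2s and 17.4% and 16.7% of cDC1s. After thinning, 27.7% and 29.2% of CLEC10A cDC2s held both, where the product of the separate shares was 27.5% and 30.5%, against 11.5% and 12.3% of DCIR2 cDC2s and 3.65% and 2.63% of cDC1s. *Flt3* and *Kit* were found together in 81.3% and 79.8% of DCIR2 cDC2s and in 81.0% and 82.1% of cDC1s, or in 35.8% and 35.2% against 28.7% and 28.6% after thinning. Both chains of the GM-CSF receptor, *Csf2ra* and *Csf2rb*, were found together in 90.1% and 89.8% of cDC1s, 75.1% and 83.1% of macrophages and 76.1% and 75.1% of mature DCs. This order did not hold after thinning, where mature DCs stood at 44.9% and 37.2%, cDC1s at 35.5% and 34.4% and macrophages at 22.2% and 21.5%. *Csf1* and *Csf1r* were found together in 8.19% and 13.8% of macrophages, or 2.39% and 1.54% after thinning.

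The study was concerned with metallophilic marginal zone macrophages, known by *Siglec1*, and with Langerin+ cDC1s, known by *Cd207*. Macrophages and cDC1s were therefore split by a UMI of these genes. Macrophages with a *Siglec1* UMI, 112 and 56 cells, were set against 181 and 74 without. Cells with *Siglec1* were deeper, at a median of 20859 and 19019 UMIs against 17903 and 17986.5. The class was gated on *Vcam1* and *C1qb*, and a cell without a *Siglec1* UMI may still express the gene. The split therefore does not isolate metallophilic macrophages. *Csf1r* was 3593 and 3520 CPM with and 3281 and 3496 CPM without *Siglec1*, a log2 fold change of 0.06 (SE 0.08). In edgeR none of the 8 genes (0) passed the threshold, where 0% of all genes were called higher and 0.0209% lower. At an unadjusted p under 0.05 there was 1, *Flt3* at -0.88 (SE 0.40), and DESeq2 called 0. This *Flt3* value rested on 24 and 13 UMIs with and 84 and 16 UMIs without *Siglec1*. *Csf1* stood at 1.05 (SE 0.55), with 6.94 and 18.2 CPM against 6.20 and 4.43 CPM. *Csf3r* stood at 0.19 (SE 0.17).

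The cDC1s with a *Cd207* UMI, 116 and 113 cells, were set against 568 and 457 without. Cells with *Cd207* were deeper, at a median of 22445 and 23444 UMIs against 19023.5 and 20248. In edgeR none of the 7 genes tested (0) passed the threshold, where 0.435% of all genes were called higher and 0.435% lower. At an unadjusted p under 0.05 there were 2, *Csf1r* and *Csf2ra*, and DESeq2 called 1. *Csf1r* was 14.6 and 9.19 CPM with and 35.5 and 26.3 CPM without *Cd207*, a log2 fold change of -1.29 (SE 0.26, edgeR adjusted p = 0.0591). With the sample as a block edgeR's adjusted p was 4.02e-07, and DESeq2 gave 0.0318. Without the cell with the most *Csf1r* UMIs in each group the levels were 11.4 and 8.14 CPM against 23.4 and 23.5 CPM. A *Csf1r* UMI was found in 19.8% and 15.9% of cells with *Cd207* and in 17.4% and 17.3% of those without, or 3.45% and 1.77% against 5.81% and 4.60% after thinning.

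*Csf2ra* was 700 and 634 CPM in cDC1s with *Cd207* and 608 and 564 CPM in those without, a log2 fold change of 0.28 (SE 0.07, edgeR adjusted p = 0.119), where edgeR with the sample as a block gave 2.64e-06. *Flt3* was 580 and 548 CPM with and 594 and 597 CPM without *Cd207*. Its log2 fold change with edgeR's TMM scaling was 0.01 (SE 0.06), and it was -0.14 after thinning. *Kit*, *Csf2rb* and *Csf2rb2* lay between 0.03 and 0.16 on the log2 scale. *Csf3r* stood at 0.04 (SE 0.61), but all 14 *Csf3r* UMIs of the cells with *Cd207* in replicate 2 lay in 1 cell. Without cells that held at least 2 UMIs of *S100a8* and *S100a9* it was -1.89 (SE 0.88, edgeR adjusted p = 0.43). *Csf1* was too low to be tested.

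A list of 42 other genes of these pathways, of which 41 were in the tables and 35 were tested between classes, was described in the same comparisons. In macrophages 15 were higher and 9 lower than in resident cDCs, and the median log2 fold change of the list was 0.28 where that of all genes was -0.03. *Kitl*, the ligand of KIT, stood at 117 and 107 CPM in macrophages and between 0.999 and 2.99 CPM in the resident cDCs, a log2 fold change of 6.09 (SE 0.25, edgeR adjusted p = 1.22e-13). Without thinning, a *Kitl* UMI was found in 66.9% and 60.8% of macrophages and in 1.54% and 2.33% of the shallower B cells. *Dok3*, an adaptor that restrains signaling, was higher by 5.06 (SE 0.27), and *Gab3*, an adaptor known from CSF1R signaling, by 1.503 (SE 0.25). *Jak2*, the kinase bound to the beta chains, was lower by -2.68 (SE 0.12), with 57.7 and 66.1 CPM in macrophages and 293 to 617 CPM in the resident cDCs. *Pik3r5* and *Cblb* were lower by -1.44 (SE 0.20) and -1.18 (SE 0.18).

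In mature DCs 13 genes of the list were higher and 10 lower, with a list median of 0.25 and -0.02 for all genes. *Socs2*, an inhibitor of cytokine signaling that STAT5 is known to induce, stood at 310 and 377 CPM in mature DCs. In the resident cDCs it stood between 0.829 and 3.98 CPM, a log2 fold change of 7.27 (SE 0.19, edgeR adjusted p = 3.15e-15). Of the same list, *Cish* stood at 0.631 and 0 CPM in mature DCs, *Socs1* at 8.20 and 21.5 CPM and *Socs3* at 3.15 and 16.0 CPM. Signaling through STAT5 was not tested. Without thinning, a *Socs2* UMI was found in 52.9% and 54.3% of mature DCs, with a median of 10399 and 10738 UMIs, and in 1.54% and 0.581% of B cells. The ubiquitin ligase gene *Cblb* was higher by 2.18 (SE 0.14) and the adaptor gene *Dok1* by 1.84 (SE 0.14). The lipid phosphatase gene *Inpp5d*, *Ptpn11* and *Plcg2* were lower by -0.90 (SE 0.14), -0.77 (SE 0.19) and -0.74 (SE 0.13).

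Between cDC1s and cDC2s 6 genes of the list were higher and 12 lower, with a list median of -0.25 and 0.00 for all genes. The kinase genes *Fgr* and *Syk* were lower in cDC1s by -2.77 (SE 0.21) and -1.39 (SE 0.11), and the phosphatase gene *Ptpn6* by -1.50 (SE 0.11). *Cblb*, the adaptor gene *Shc1* and *Inpp5d* were higher by 0.91 (SE 0.15), 0.75 (SE 0.11) and 0.63 (SE 0.13). Between the cDC2 classes 2 were higher and 1 lower, the last being *Jak2* at -0.50 (SE 0.11) in CLEC10A cDC2s. In pDCs 2 were higher, *Fgr* by 0.73 (SE 0.22) and *Jak2* by 0.50 (SE 0.11), and 4 lower, among them *Shc1* by -1.14 (SE 0.29) and *Plcg2* by -0.86 (SE 0.19). *Fgr* stood at 650 and 368 CPM in pDCs and at 71.1 and 65.0 CPM in cDC1s. DCIR2 cDC2s held 569 and 562 CPM and CLEC10A cDC2s 514 and 447 CPM, both above the pDCs of replicate 2. By edgeR's adjusted p, 0 of 33 genes differed with *Siglec1* in macrophages and 0 of 31 with *Cd207* in cDC1s.

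**Figure D5:**
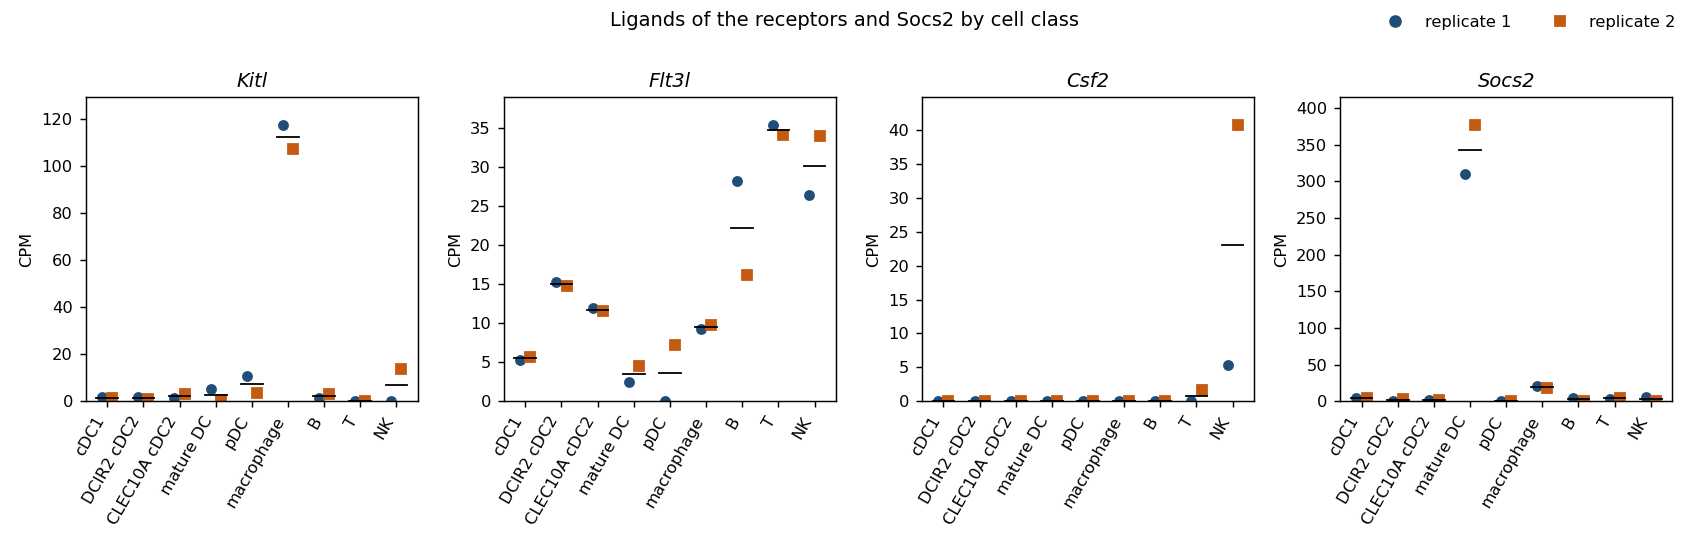
Level (vertical axis, CPM from 0) of the ligand genes *Kitl*, *Flt3l* and *Csf2* and of *Socs2* in the 9 classes (horizontal axis), with circles for replicate 1, squares for replicate 2 and a line at their mean. *Kitl* stands at 117 and 107 CPM in macrophages and *Socs2* at 310 and 377 CPM in mature DCs.

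Other ligands were scarce in these cells. *Flt3l*, the ligand of FLT3, was highest in T cells at 35.4 and 34.2 CPM and NK cells at 26.5 and 34.0 CPM, and stood at 15.3 and 14.8 CPM in DCIR2 cDC2s and 5.35 and 5.67 CPM in cDC1s. *Csf2*, which encodes GM-CSF, had 2 and 12 UMIs in NK cells, 2 UMIs in T cells of replicate 2 and 1 UMI in all other cells. *Csf3*, which encodes G-CSF, had 0 UMIs in every kept cell, and *Il34* had 18 and 23 UMIs. *Il5ra*, a partner of the common beta chain, stood at 69.1 and 65.6 CPM in B cells and at most 3.50 CPM in the DC and macrophage classes.

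For each gene the genes with the most similar pattern were taken from 5791 candidates by Pearson's r of log2(CPM + 10) over 18 sums, 9 classes in 2 replicates. These sums share libraries and differ in depth, so r is a description. *Flt3* was most like *Zbtb46* (0.96), *Bcl6* (0.95) and *Plekha1* (0.93), and *Kit* most like *Kcnip3*, *Klri1* and *Zbtb46* (each 0.95). *Zbtb46* encodes a transcription factor known from cDCs. *Csf1r* was most like *Lrp1* (0.98), *Tmem86a* (0.95) and *Paox* (0.95), and *Csf3r* most like *Msrb1* (0.92), *Adgre4* (0.90) and *Clec4a3* (0.89). *Csf2ra* was most like *Atox1* (0.96), *Arhgdia* (0.93) and *Skap2* (0.93). *Csf2rb* was most like *Sowahc* (0.94), *Klhl5* (0.93) and *Skap2* (0.93), and *Csf2rb2* most like *Sowahc* (0.93), *Syngr2* (0.92) and *Batf3* (0.90). The leading values of *Csf1* were lower, at 0.84 for *Eif1* and 0.71 and 0.70 for *Slc26a2* and *Stxbp3*.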

How the data were processed

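The authors deposited UMI counts per cell and gene, without normalization, from the BD Rhapsody WTA Analysis Pipeline 1.12.1 on GRCm38 with GENCODE vM19, with intronic reads counted. Cells with at least 200 genes and within 3 median absolute deviations of their sample's mean in mitochondrial percentage, genes and UMIs were kept. The depth was 46953398 and 43137746 UMIs. Cells were classed by the gates above, and UMI sums per replicate and class were tested with edgeR 4.0.16 in R 4.3.3 (TMM, filterByExpr, quasi-likelihood test, threshold 0.05), without the gate genes (nor *Siglec1* or *Cd207* where they split the cells). Standard errors were derived from each log2 fold change and its F value. DESeq2 1.42.0, other filters, gates and thinned cells were alternatives. Classes of 1 replicate come from 1 sample, and their deviations correlated at 0.0159 to 0.144. Replicates differed beyond sampling noise (chi-square per degree of freedom 2.31 to 6.08). The scripts were tested on simulated data with known changes. Of the pathway list, the 3 called genes with the largest fold change per direction and 50 CPM or more where they were higher were named, and for each gene described the 3 with the most similar pattern. The genes, gates and lists were chosen with earlier results of these data known. Python 3.11.15 was used. Positions are from GENCODE M21. KO samples of the run were not analysed here. An item that the naming rule selects is not reported here.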

Additional observations from a re-analysis of the deposited data

Results flagged for a closer look

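Cells that fell into no class were used in no comparison, and all 8 genes were found in them above the limit that a count of 0 allows (3 UMIs, or 0.5002 and 0.495 CPM in replicates 1 and 2). *Flt3* stood at 455 and 439 CPM, *Kit* at 211 and 227 CPM, *Csf1r* at 201 and 253 CPM, *Csf2ra* at 443 and 412 CPM, *Csf2rb* at 261 and 285 CPM and *Csf2rb2* at 47.7 and 43.9 CPM. *Csf3r* stood at 24.0 CPM in replicate 1 (144 UMIs) and 35.3 CPM in replicate 2 (214 UMIs). Of these, 26 and 57 UMIs lay in 7 cells of each replicate with at least 2 UMIs of *S100a8* and *S100a9*. *Csf1* stood at 3.67 CPM in replicate 1 (22 UMIs) and 14.03 CPM in replicate 2 (85 UMIs). In replicate 2, 61 of these UMIs lay in 1 cell that also held 326 *Mcpt8*, 846 *Prss34* and 70 *Cpa3* UMIs, genes known from basophils, and without it the level was 3.97 CPM. No other class held a cell with so many *Csf1* UMIs.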

How the results depend on the processing

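Of 55 fitted differences of the 8 genes, each under the alternatives that left out no sum of a class and no sample (539 values), 471 kept direction and side of the threshold, 25 gained it, 17 lost it and 26 changed sign. The causes were not tested. With DESeq2 the calls were 0 of the 8 genes higher in cDC1s, 1 lower in CLEC10A cDC2s, 1 lower in cDC1s with *Cd207*, 1011 of all genes higher in pDCs and 1 lower with *Siglec1*. A fold of at least 2 left 1965 genes higher and 1725 lower in macrophages (2 of the 8 lower), 869 and 1132 in cDC1s (0 of the 8 higher), 131 lower in CLEC10A cDC2s, 1288 and 595 in mature DCs (2 of the 8 higher, 0 lower), 372 lower in pDCs (1 of the 8 higher) and 2 higher with *Cd207*. Without the filter on low counts there were 397 lower in CLEC10A cDC2s (1 of the 8), 1238 lower in pDCs (2 of the 8), 2 of the 8 lower in mature DCs, 19 higher and 55 lower with *Siglec1*, and 177 higher and 263 lower with *Cd207* (1 of the 8 each). With the replicate block, whose numbers pair sums of the same sample, there were 15 higher and 35 lower with *Siglec1*, against 0 and 2 without it, and 390 higher and 262 lower with *Cd207*, against 48 and 48 (1 of the 8 each). The block also made 1 of the 8, *Kit*, lower in CLEC10A cDC2s and called *Kit* in cDC1s, and it changed no other call of the 8 genes. Over all deposited cells, 1 of the 8 was lower in CLEC10A cDC2s, and 1 gene was higher and 9 lower with *Siglec1*. Without cells of more than 1 gate, 381 were lower in CLEC10A cDC2s (5 of the 8 higher), 263 higher in pDCs (1 of the 8), 0 lower with *Siglec1*, and 30 higher and 17 lower with *Cd207*. With cells thinned, 2045 were lower in macrophages, 1097 lower in mature DCs (2 of the 8), 140 higher and 212 lower in pDCs (1 of the 8 higher), 20 lower with *Cd207*, and 1 of the 8 lower in CLEC10A cDC2s. Of the alternatives chosen after seeing the data, leaving out cells with 4 monocyte genes gave 382 higher in pDCs and 26 higher and 24 lower with *Cd207*, and leaving out cells with *S100a8* and *S100a9* gave 1 of the 8 lower with *Cd207*. Signs changed as follows on the log2 scale. Without cells of more than 1 gate, *Csf2rb* in cDC1s was 0.0696, *Csf2rb2* in pDCs -0.58 and *Csf2ra* with *Siglec1* 0.0315. Without cells with *S100a8* and *S100a9*, *Csf3r* was -0.0789 in mature DCs and -1.89 with *Cd207*, and *Csf2ra* with *Siglec1* 0.000147. Thinned, *Kit* was -0.79 and *Csf2rb2* -1.58 in pDCs, *Csf2rb* 0.0850 and *Csf3r* -0.13 with *Siglec1*, and *Flt3* -0.14, *Kit* -0.0532 and *Csf2rb2* -0.16 with *Cd207*. Without the filter, *Kit* in pDCs was -0.21, and *Flt3* -0.0266 and *Csf2rb2* -0.0106 with *Cd207*. Over all cells, *Kit* was -0.0807 in pDCs, *Csf2ra* 0.0197 with *Siglec1*, and *Kit* -0.00409, *Csf2rb2* -0.0881 and *Csf3r* -0.44 with *Cd207*. Without cells with monocyte genes, *Csf2rb2* was -0.31 in pDCs and -0.0115 with *Cd207*, *Csf2ra* 0.0176 with *Siglec1* and *Csf3r* -2.24 with *Cd207*. With the block, *Kit* in pDCs was -0.00357. No genes were called without a whole sample, so whether the calls outlast its loss was not tested. The counts that follow lack only the sum of the named class in 1 replicate, and the other classes of that replicate stayed in the fit. Leaving out 1 such sum gave 2619 to 2918 genes higher and 1972 to 2554 lower in macrophages, against 3269 and 3164, and 3 to 5 of the 8 lower. It gave 1414 to 1424 higher and 1339 to 1361 lower in cDC1s, against 2200 and 2082, with 0 of the 8 higher and 2 lower. It gave 182 to 287 higher and 35 to 64 lower in CLEC10A cDC2s, against 423 and 237, with 2 of the 8 higher. It gave 1397 to 1658 higher and 1054 to 1122 lower in mature DCs, against 2167 and 1780, with 2 to 4 of the 8 higher, and 205 to 388 higher and 250 to 489 lower in pDCs, against 584 and 566, with 1 to 2 of the 8 higher. With *Siglec1* it gave 0 to 2 higher and 0 to 2 lower, and with *Cd207* 27 to 62 higher and 34 to 38 lower. Signs changed without 1 such sum or without 1 whole sample for *Csf3r* in mature DCs (-0.326 to 1.64), *Kit* (-0.220 to 0.0833) and *Csf2rb2* (-0.408 to 0.819) in pDCs, *Csf2ra* (-0.0842 to 0.0702) and *Csf2rb2* (-0.103 to 0.405) with *Siglec1*, and *Flt3* (-0.0351 to 0.0628), *Csf2rb2* (-0.0766 to 0.133) and *Csf3r* (-1.71 to 1.22) with *Cd207*. The class with the highest level stayed the same for all 8 genes except *Csf1*, which was highest in mature DCs with gates doubled, and *Kit*, which was highest in pDCs without cells of more than 1 gate.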
